A study of Mus musculus with 8 samples.

Results

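The myogenic regulatory factors and their partners were followed in proliferating C2C12 cells, a mouse myoblast line, after silencing of the long non-coding RNA Pvt1. They were defined by name as 9 genes: Myod1, Myf5, Myog, Myf6, Pax7, Mef2a, Mef2c, Mef2d and Six4. The design of the array named 37074 genes, and it carried 18 probes for these 9 among 56605 probes in all. Of these, 13 probes for 8 genes gave at least 3 of 4 values in each group and could be tested, among 28649 tested probes. The remaining 5 probes did not reach that limit, and they included the only probe for Myf6.

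The study asked how the myoblast transcriptome responds when Pvt1 is lowered. Of the 8 cultures, 4 were given LNA GapmeRs against Pvt1, which are short antisense oligonucleotides that cause a matching RNA to be cut, and 4 were given the manufacturer's negative control GapmeRs. Both groups were the same line at passage 10, grown in the same medium, transfected with the same lipid reagent and harvested while proliferating, and the labels call the 4 cultures of a group biological replicates. Cy3-labelled RNA of each culture was hybridised to one 1-colour Agilent array, and values below are log2 of the processed spot signal after quantile normalization, so a difference of 1 is a doubling of signal. The model is limited to 1 line that was kept out of differentiation medium, and both GapmeRs are named for the silenced cells, so that their effects cannot be told apart. Their sequences are shown because every comparison below rests on them.
Pvt1_1: ACCGTAGTAGAGTTAA
Pvt1_3: AGTCAACGCTTCACAT

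Skeletal muscle identity is set by a small family of basic helix-loop-helix transcription factors. Myod1 and Myf5 commit cells to the muscle lineage and are already present in myoblasts, whereas Myog drives terminal differentiation and Myf6 acts late, in differentiating and mature fibres. They bind E-boxes, short DNA motifs, as dimers with E proteins. Pax7 marks satellite cells and undifferentiated myoblasts. Mef2 proteins are MADS-box factors that cooperate with the helix-loop-helix factors on muscle promoters, and Six4 is a homeodomain factor that binds MEF3 motifs upstream of muscle genes.

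The Myog promoter shows how these families meet on 1 gene, and it is printed because it holds a motif of each. The RefSeq promoter table for build GRCm38.p6 matched 7 of the 9 genes, with 10 entries in all. The sequence below covers the 250 bases before the Myog start site, chr1:134289754-134290003 on the plus strand, with motif matches in capitals.
Myog promoter: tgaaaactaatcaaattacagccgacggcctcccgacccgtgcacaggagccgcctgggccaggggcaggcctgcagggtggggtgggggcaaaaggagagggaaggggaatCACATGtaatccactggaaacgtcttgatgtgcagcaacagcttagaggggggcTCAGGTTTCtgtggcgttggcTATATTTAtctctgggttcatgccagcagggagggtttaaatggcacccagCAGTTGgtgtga
Both strands were searched for the E-box CANNTG, for a MEF2 core made of TA, 4 letters that are each A or T, and TA, and for the MEF3 motif TCAGGTTTC. Myog held E-boxes at 138 to 133 and at 12 to 7 bases before the start site, the MEF3 motif at 84 to 76 bases and the MEF2 core at 63 to 56 bases. No 2 of these matches overlapped. Among 32851 promoter windows of this length, 66.2% held an E-box, 8.56% a MEF2 core and 0.387% the MEF3 motif, and 11 windows (0.0335%) held all 3. An entry for Six4 held the MEF3 motif too, an entry for Mef2c held 2 E-boxes and a MEF2 core, and another for Mef2c held 1 E-box. The windows of Mef2a, Mef2d, Myf5 and Pax7 held none of these letters. These are matches of letters, and binding was not measured here. As the Myog window was chosen for holding all 3 motifs, the shares are no test of it.

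Myod1 fell, together with probes of Mef2a and Mef2d, while the brightest probes of Mef2a, Mef2d, Mef2c and Six4 and those of Pax7 and Myog did not pass the test. Of the 13 tested probes, 4 were called lower (limma, adjusted p below 0.05) and they belonged to 3 genes, Myod1, Mef2a and Mef2d. That is 30.8% of the tested probes, and over the whole array 18.4% of probes were called lower, so a call was common among all genes. None of the 13 was called higher by limma, where 4.79% of all probes were, although 2 had an unadjusted p below 0.05 in limma and 1 in the methods' t-test. The median change of the 13 probes was 0.02 and that of all tested probes -0.19, and single changes are to be read against the latter. Of the 13 probes, 5 were measured on every array with all silenced values below all control values, against 23.1% of 25108 such probes. None had all silenced values above the controls, against 5.36%.

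**Figure D1:**
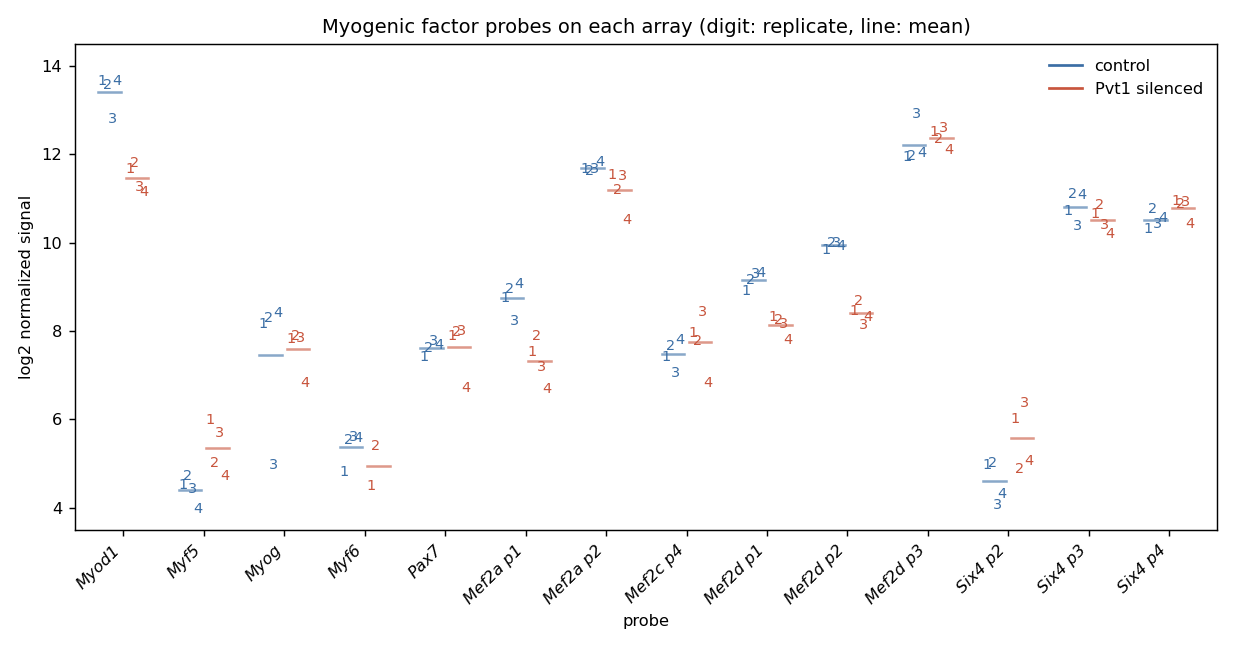
The plot gives the log2 normalized signal (vertical axis) of the 13 tested probes and of Myf6 (horizontal axis), with each array drawn as its replicate digit and each group mean as a line. Where a gene has several probes they are numbered along the gene from its 5′ side. Myod1, Mef2a p1, Mef2a p2, Mef2d p1 and Mef2d p2 have all 4 silenced values below all 4 controls, and control replicate 3 lies far below the other controls for Myog, at 4.96.

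Single arrays stood apart for several of these genes. Between 58.8% and 62.5% of spots were positive and significant in controls and between 51.6% and 61.0% in silenced cultures, with silenced replicate 4 the dimmest. The correlation of control replicate 3 with its group averaged 0.964, and that of the other 3 controls 0.981. The brightest probe of the target itself, Pvt1, changed by -2.86 (SE 0.32, limma adjusted p 0.000682), to 13.8% of its control signal, with no overlap between groups. The balance of calls over the array depended on masking and normalization: 79.3% of called probes were lower after masking and quantile normalization, 49.3% after masking and cyclic loess, 49.0% after quantile normalization without masking and 49.7% in the authors' table. The shares of all probes called lower and higher, 18.4% and 4.79%, were 18.4% and 18.9% after cyclic loess, 13.9% and 3.57% with the replicate block, 8.98% and 1.86% with a block for the slide row, and 9.96% and 1.98% by the methods' t-test. When 1 array was left out they ran from 10.3% to 19.8% and from 2.36% to 12%. Counts under these alternatives are to be read against these shares.

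The myoblast identity of the cells was checked with 9 marker genes. Of these 8 were well above background on every array of both groups, and the exception was Myf5. Their summed processed signal ran from 157000 to 179000 in controls and from 111000 to 142000 in silenced cultures. By their brightest probes Myod1, Des and Cdh15 were the 3 that fell, against 18.4% of all probes. Myod1 and Myf5 are also members, and Des, Cdh15 and Chrna1 are counted again among the muscle targets below. In other settings 4 fell without control replicate 3, and 2 fell with the replicate block, with a block for the slide row, and without control replicate 2 or 4. Dimmer probes of Itga7 (-2.20, limma adjusted p 0.000553) and Ncam1 (-2.0, limma adjusted p 0.00161) fell too, so that 5 of 9 had a probe called lower, against 23.4% of the 19360 named genes tested. Sdc4 had 8.88 in control replicate 3 and 13.07 to 13.38 in the other controls (change -1.23, limma adjusted p 0.35). Markers of another cell type also moved with the groups: of 10 hepatocyte genes, 2 were well above background on any control array and 8 on any silenced array, with summed signals of 930 to 1740 and 2650 to 3780. Alb, the gene of serum albumin, was well above background on 0 control arrays and on 4 silenced arrays and was at least 25.5-fold higher. Apoa1 and Tat were well above background on none, and Apoa2 changed by -0.15 (limma adjusted p 0.821). Cyp2e1, of the same list, was called higher (1.14, limma adjusted p 0.0493), but it was well above background on 1 control and 3 silenced arrays and the groups overlapped. The call was lost with the replicate block, with a block for the slide row, by the methods' t-test and without any 1 array except silenced replicate 4. Only 3 of the 10 genes could be tested after masking. In the authors' table and without masking, 7 of 10 were called higher (9.86% and 8.82% of all probes). The part of these transcripts in the results was not tested. Of 7 adipocyte genes, summed signals were 3450 to 4010 and 3180 to 4050, and of 6 osteoblast genes 543 to 606 and 598 to 736. Single genes of these lists were called. Cebpa, a transcription factor of adipocytes, was well above background on 4 control and 0 silenced arrays and was at least 2.44-fold lower (limma adjusted p 0.00874). Lep, the leptin gene, changed by -0.92 (limma adjusted p 0.0135). In the authors' table, without masking and after normexp, 0 of 7 adipocyte genes were called lower (9.75%, 8.46% and 8.88% of all probes). With a block for the slide row, after cyclic loess and by the methods' t-test 1 was lower (8.98%, 18.4% and 9.96%). Bglap, the osteocalcin gene, was well above background on 0 control and 3 silenced arrays and was at least 3.24-fold higher (limma adjusted p 0.00586). The part of these genes in the results was not tested either. In bulk RNA, fewer cells of a type and less RNA per cell cannot be told apart.

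Myod1, the commitment factor of the lineage, gave the largest change of the 13 probes. Its single probe lies at chr7:53633956-53634015 (mm9, plus strand), and its first 30 of 60 bases are shown because this is the stretch of RNA that was measured.
Myod1 probe: ttttgttgttgttgttgtagtccttcagtt
Controls had log2 signals of 13.66, 13.57, 12.81 and 13.66 in replicates 1 to 4. Silenced cultures had 11.67, 11.80, 11.26 and 11.16. The highest silenced value was thus below the lowest control, and control replicate 3 was the low one of its group. The means were 13.42 ± 0.41 (SD, n = 4) and 11.47 ± 0.31 (SD, n = 4). The change was -1.95 (SE 0.26, 95% confidence interval -2.54 to -1.37, limma adjusted p 0.0013), which is 3.87-fold lower or 25.8% of the control signal. Relative to the median of all probes it was -1.76. Of the tested probes, 643 (2.24%) fell by as much or more. Myod1 was called lower in each of the 20 alternatives tried, with changes of -2.16 to -1.76. Control arrays lay mostly in the upper row of the slide and silenced arrays in the lower, and within these rows the change was -1.68 (3 controls, 1 silenced array) and -2.25 (1 control, 3 silenced arrays).

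Myf5, the other commitment factor, could not be read in the same way. Its probe (chr10:106919974-106920033, minus strand) was positive on all 8 arrays but well above background on none. Controls gave 4.51, 4.73, 4.43 and 3.97, and silenced cultures 5.99, 5.02, 5.69 and 4.72. Silenced replicate 4 lay at the level of the highest control, so the groups overlapped. Limma gave an adjusted p of 0.053, and no fold is given because neither group rose well above background. Over 19 alternatives the adjusted p ran from 0.00609 to 0.154, with 8 calls. The Myf5 probe was the only one of the 18 that holds a polyadenylation signal (AATAAA or ATTAAA). Among the 4265 tested probes with such a signal 10.2% were called higher and 6.64% lower, while among the 24384 without one 3.84% were called higher and 20.4% lower. The part of this feature in the Myf5 values was not tested.

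Myog, the factor of terminal differentiation, was not called. Its probe lies at chr1:136188874-136188933 (plus strand).
Myog probe: atcttgggaaccttccagtgctttgtgtat
Controls had 8.17, 8.30, 4.96 and 8.41, and silenced cultures 7.81, 7.89, 7.84 and 6.83. One array of each group (control replicate 3 and silenced replicate 4) was far below the others of its group, and control replicate 3 was the only array where the probe was not well above background. The change was 0.13 (SE 0.70, 95% confidence interval -1.44 to 1.71, limma adjusted p 0.917). It turned to -0.70 (limma adjusted p 0.11) without control replicate 3, and to -0.45 (limma adjusted p 0.0442) without both arrays, an alternative added after the values were seen. When all spots not well above background were left out it was -0.83 (limma adjusted p 0.0522). Within the upper and the lower row of the slide it was 0.66 and -0.89.

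Myf6, the late factor, was near the background of the array. Its probe (chr10:106930237-106930296, minus strand) gave 4.81, 5.53, 5.61 and 5.57 in controls. It gave 4.49 and 5.40 in silenced replicates 1 and 2 and was not positive in replicates 3 and 4. It was well above background on none of the 8 arrays and was not tested.

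Pax7, the satellite cell factor, had no called change after masking and quantile normalization. Controls had 7.42, 7.61, 7.77 and 7.69, and silenced cultures 7.89, 7.97, 8.0 and 6.72. Silenced replicates 1 to 3 were above every control, and replicate 4 was below every control. The change was 0.02 (SE 0.30, 95% confidence interval -0.65 to 0.69, limma adjusted p 0.972). Pax7 was called higher after cyclic loess (0.39, limma adjusted p 0.0286), in the authors' table (0.37, limma adjusted p 0.0224) and without masking of dim spots (0.36, limma adjusted p 0.0176), so its call depended on normalization and masking.

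Mef2d, a MADS-box partner of the helix-loop-helix factors, changed at 2 of its 3 probes. The probes lie on the plus strand of chromosome 3 (mm9) and are shown in order along the gene, by their first 30 bases, because they differ in response.
Mef2d p1, chr3:87972214-87972560: cagagcctgaggctgagggctcagctgtga
Mef2d p2, chr3:87972971-87973030: caaaaactacccaacaacaaaacccagata
Mef2d p3, chr3:87975777-87975836: aaacttgacaatcacccacactcctggctc
At p1 controls had 8.91, 9.15, 9.29 and 9.31, and silenced cultures 8.33, 8.25, 8.16 and 7.79. At p2 controls had 9.84, 10.00, 9.99 and 9.93, and silenced cultures 8.46, 8.69, 8.13 and 8.33. Neither probe had an overlap between groups. The change was -1.03 at p1 (SE 0.20, limma adjusted p 0.00691) and -1.53 at p2 (SE 0.19, limma adjusted p 0.00101), and both were called lower in all 20 alternatives.
At p3, the brightest probe and the one nearest the 3′ end, controls had 11.94, 11.96, 12.91 and 12.04, and silenced cultures 12.50, 12.35, 12.59 and 12.09. Control replicate 3 was the highest of all 8 arrays there, and the other controls were below every silenced value. The change was 0.17 (SE 0.26, 95% confidence interval -0.42 to 0.75, limma adjusted p 0.689). It was called higher in 1 of 20 alternatives, without control replicate 3 and silenced replicate 4 (0.50, limma adjusted p 0.0308). The difference p1 minus p3, taken on each array, had a control mean of -3.05 ± 0.40 (SD, n = 4) and a silenced mean of -4.25 ± 0.15 (SD, n = 4). Silenced minus control was thus -1.20, with no overlap (two-sided exact permutation p 0.0286, the smallest this design allows). Leaving out 1 array gave exact permutation p values from 0.0286 to 0.0571.

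Mef2a showed 1 called probe of 2. This ubiquitous Mef2 gene lies on the minus strand of chromosome 7 (mm9), and its probes are again numbered along the gene. The first 30 bases of the called probe are shown.
Mef2a p1, chr7:74379743-74379802: agaaagcccttctgtaaaacgcatgaggat
At p1 controls had 8.74, 8.95, 8.23 and 9.07, and silenced cultures 7.53, 7.90, 7.18 and 6.69. At p2, the brighter probe, controls had 11.67, 11.62, 11.67 and 11.83, and silenced cultures 11.53, 11.19, 11.51 and 10.51. At both probes the silenced values lay below all controls, by a narrow margin at p2. The change was -1.43 at p1 (SE 0.30, limma adjusted p 0.00896), called in all 20 alternatives, and -0.51 at p2 (SE 0.25, 95% confidence interval -1.08 to 0.05, limma adjusted p 0.173), called in 0 of 20. The difference p1 minus p2 was lower in silenced cultures (silenced minus control -0.91), but the groups overlapped and the exact permutation p was 0.0571.

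A gap of this kind between probes of 1 gene was common on these arrays. In 2548 genes with tested probes 1000 to 10000 bases apart, the change at the upstream probe minus that at the downstream probe had a median of -0.48, and it was below 0 in 70.5% of genes. A gap at least as negative as that of Mef2a was seen in 32.5% of them and as that of Mef2d in 22.7%. Whether the probes lie in coding sequence, UTR or intron was not analysed here, and the part of probe position in the Mef2 results was not tested. The single probe of Myod1 allows no such comparison.

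**Figure D2:**
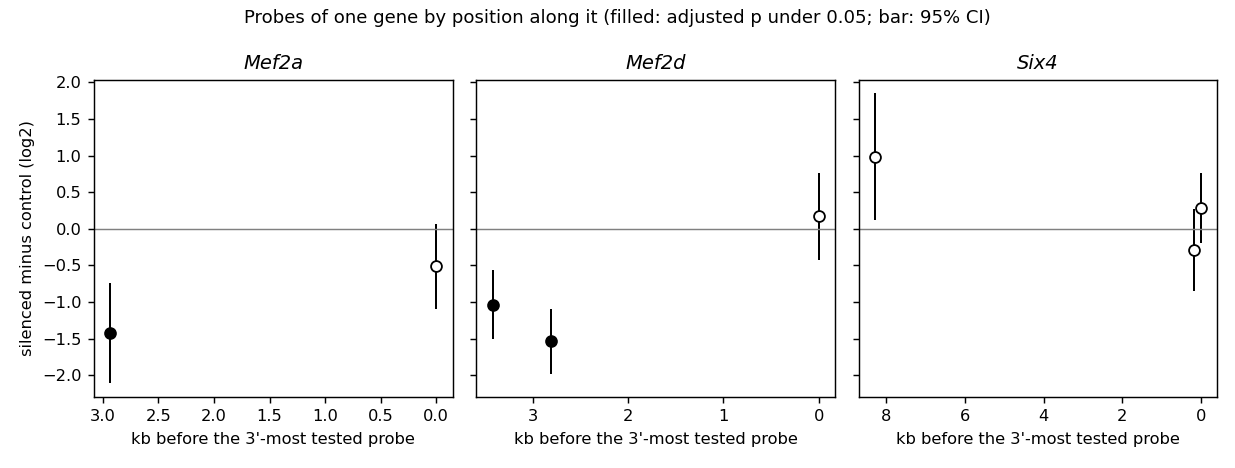
The plot gives the change (silenced minus control, log2, vertical axis) with its 95% confidence interval for each tested probe of Mef2a, Mef2d and Six4 against its distance in kb from the tested probe nearest the 3′ end (horizontal axis). Filled points passed the test. The Mef2a and Mef2d probes farther from that end have changes of -1.43, -1.03 and -1.53, while those at the end have -0.51 and 0.17, and Six4 has no called probe. The size drawn for the Six4 probe farthest upstream rests on signals near background.

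Mef2c, a Mef2 gene prominent in muscle, heart and brain, was measured well by 1 of its 4 probes. At chr13:83803888-83803947 (plus strand) controls had 7.41, 7.66, 7.06 and 7.79, and silenced cultures 7.96, 7.77, 8.43 and 6.83. The groups overlapped, with silenced replicate 4 below every control. The change was 0.27 (SE 0.34, 95% confidence interval -0.48 to 1.02, limma adjusted p 0.613), and cyclic loess alone of 20 alternatives called it, as higher (0.65, limma adjusted p 0.0392). The other 3 probes, at 83665698, 83668174 and 83772788, were positive on too few arrays to be tested.

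Six4, the homeodomain partner, had no called probe among 3 tested. At chr12:74201246-74201305 (minus strand) controls had 10.71, 11.10, 10.38 and 11.07, and silenced cultures 10.65, 10.85, 10.40 and 10.20. At chr12:74201054-74201113 controls had 10.30, 10.77, 10.43 and 10.56, and silenced cultures 10.94, 10.87, 10.93 and 10.43. The first pair of groups overlapped in part, with silenced replicate 4 below every control and control replicates 2 and 4 above every silenced value, and in the second only silenced replicate 4 fell within the controls. The changes were -0.29 (SE 0.24, limma adjusted p 0.427) and 0.28 (SE 0.21, limma adjusted p 0.371), at probes 192 bases apart. The difference between these 2 probes on each array was lower in silenced cultures (silenced minus control -0.57, exact permutation p 0.0571), but this pair was chosen after the values were seen. The probe at 74201054 was called higher in 4 of 20 alternatives, among them cyclic loess (0.44, limma adjusted p 0.0286) and the authors' table (0.48, limma adjusted p 0.00559).
The Six4 probe farther upstream, at chr12:74209327-74209386, was well above background on 0 control arrays and 1 silenced array, silenced replicate 3. Controls had 4.97, 5.02, 4.07 and 4.32, and silenced cultures 6.01, 4.87, 6.38 and 5.06, so that the groups overlapped. Limma gave an adjusted p of 0.0907, and no change is given because controls did not rise well above background. The pair farthest apart, which was to be compared for each gene, includes this probe (exact permutation p 0.143), and no difference is given for it on the same ground. The probe at 74214112 was positive on none of the 8 arrays.

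**Figure D3:**
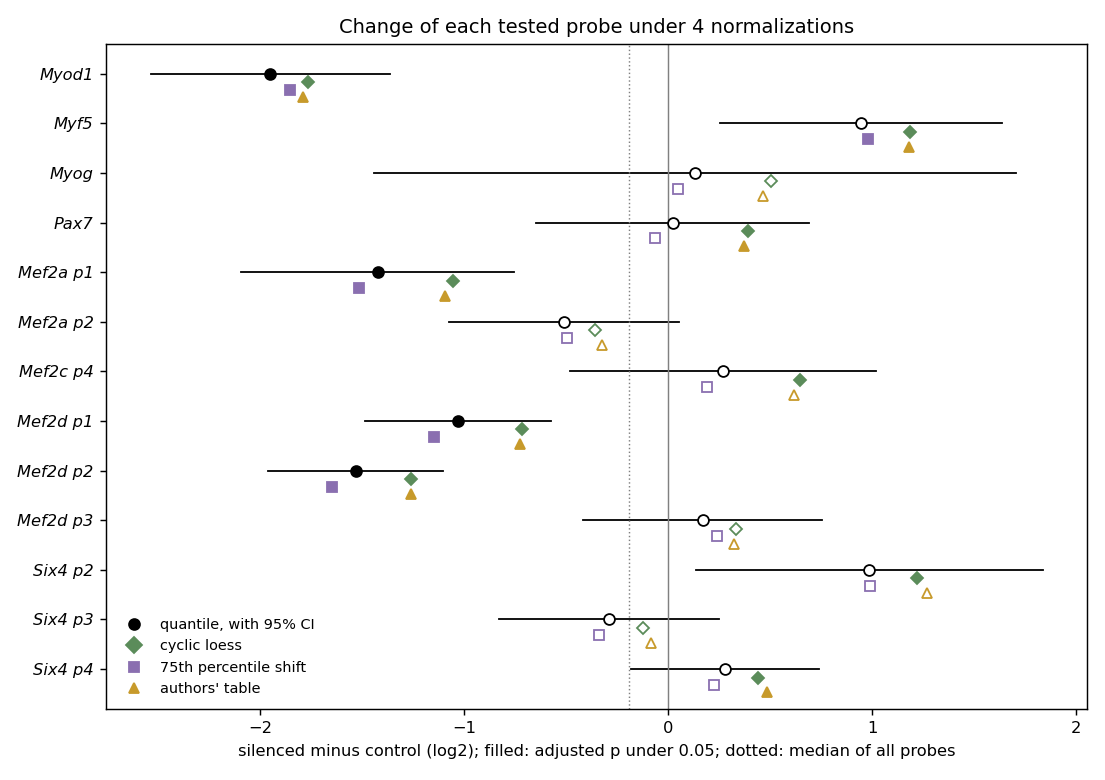
The plot gives the change (silenced minus control, log2, horizontal axis) of each of the 13 tested probes (vertical axis) after quantile normalization, with its 95% confidence interval, and after cyclic loess, after a shift to the 75th percentile and in the authors' table. Filled symbols passed the test, and the dotted line marks the median of all probes, -0.19. Myod1, Mef2a p1, Mef2d p1 and Mef2d p2 are filled under all 4, while Pax7 is filled under 2 of them. The sizes drawn for Myf5 and Six4 p2 rest on signals near background.

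Genes of E proteins and coactivators, with which the factors act, were mostly not called by their brightest probes, while 8 of the 15 tested had some probe called lower and 0 one called higher. Over all named genes tested these shares were 23.4% and 6.8%, and a gene with more probes has more chances of a call. Of the lists described below, 11 of 33 muscle targets, 7 of 22 inhibitors and 4 of 13 relatives had a probe called lower. A probe called higher was held by 2, 1 and 1 of them. Of 16 genes, each by its brightest probe, 15 were tested, 2 fell, 0 rose and 13 did not pass limma's test, with a median change of -0.31 (all probes -0.19, 18.4% called lower and 4.79% higher). At an unadjusted p below 0.05, 0 rose by limma and 0 by the methods' t-test. Crebbp, a histone acetyltransferase, had 11.59 to 12.02 in controls and 10.15 to 10.84 in silenced cultures (change -1.31, SE 0.22, limma adjusted p 0.00324). Its other 2 tested probes changed by -2.13 and -1.78. Prmt5, an arginine methyltransferase that acts on histones, changed by -1.14 (SE 0.24, limma adjusted p 0.0101), with no value in silenced replicate 4. Without control replicate 3, 4 genes of the list fell (19.8% of all probes), while 1 fell by the methods' t-test (9.96%), in the authors' table (9.75%) and with only probes measured on all 8 arrays (19.7%). Dimmer probes fell for 3 further coactivators, also named after their values were seen. These were Carm1, an arginine methyltransferase (-2.09, limma adjusted p 0.000444, brightest probe -0.31), and 2 genes of SWI/SNF chromatin remodelling subunits, Smarca4 (-1.66, limma adjusted p 0.00406, brightest probe 0.05) and Smarcd3 (-1.38 and -1.55, limma adjusted p 0.00294 and 0.00188, brightest probe -0.37). The E protein genes themselves, outside the naming rule, had no called change at their brightest probes but called ones at others. Tcf3 changed by -0.50 (limma adjusted p 0.566) where control replicate 3 had 10.48 and the other controls 12.99 to 13.28, and its second probe fell (-1.71, limma adjusted p 0.0469). Tcf4 had 0.06 at the brightest probe, and 2 of its other 3 fell (-0.81 and -0.89, limma adjusted p 0.026 and 0.042). Tcf12 had 0.17 at the brightest probe, and 1 of its other 4 fell (-0.96, limma adjusted p 0.0312).

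Among 18 relatives of Six4, Pax7 and the Mef2 genes and other upstream factors, 12 were tested, 4 fell, 1 rose and 7 were not called, with a median change of -0.16, against 18.4% lower and 4.79% higher over all probes. With the slide row as a block 0 fell and 0 rose by limma, while 4 were lower and 1 higher at an unadjusted p below 0.05. By the methods' t-test 1 fell and 1 rose. Leaving out control replicate 1, 2 or 4 or silenced replicate 1 left 1 that fell, and leaving out control replicate 3 or silenced replicate 2 left 2. Eya4, of a family of coactivators that bind Six4 and its relatives, had 8.25 to 9.11 in controls and 6.41 to 8.19 in silenced cultures (change -1.24, SE 0.37, limma adjusted p 0.0374). Six5 was well above background on 4 control and 0 silenced arrays and was at least 2.20-fold lower (limma adjusted p 0.0177). Tead1, which binds MCAT motifs of muscle genes, and Srf, the serum response factor, changed by -0.74 (limma adjusted p 0.0212) and -0.71 (limma adjusted p 0.0415). Srf falls outside the naming rule and was added after its value was seen. Lbx1, a homeobox gene of migrating muscle precursors, rose from 6.17 to 6.72 in controls to 6.96 to 7.79 in silenced cultures (change 1.19, SE 0.25, limma adjusted p 0.00911). The other tested probes of Tead1 were at -1.10 and 0.04.

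Of 27 genes of inhibitors of the factors, 22 were tested, 4 fell, 1 rose and 17 were not called by their brightest probes. The median change was -0.09, and these counts were close to the shares over all probes, 18.4% lower and 4.79% higher. Counting every probe, 7 had a probe called lower and 1 had a probe called higher, against 23.4% and 6.8% of named genes tested. With the slide row as a block 1 fell and 0 rose by limma (4 lower and 1 higher at an unadjusted p below 0.05), and by the methods' t-test 1 fell and 0 rose (5 lower and 2 higher at an unadjusted p below 0.05). Leaving out control replicate 2 or 4 left 1 that fell, leaving out silenced replicate 1 left 2, and the rise was lost without silenced replicate 1, 2 or 3. Id2 and Id3, which sequester E proteins, changed by -0.80 (limma adjusted p 0.0237) and -0.82 (limma adjusted p 0.0462). Zeb1, a zinc finger repressor that binds E-box-like sites, changed by -1.25 (SE 0.24, limma adjusted p 0.00615), while its other tested probes were at -0.59 and 0.18, not called. Msc, a helix-loop-helix repressor also called musculin, had 8.14 to 8.59 in controls and 6.83 to 8.01 in silenced cultures (change -1.05, limma adjusted p 0.0196). Hes1, a repressor downstream of Notch, had 7.07 to 8.06 in controls and 8.32 to 9.02 in silenced cultures (change 1.05, SE 0.28, limma adjusted p 0.0228). Id2 lies outside the naming rule and was named after its value was seen.

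Muscle genes that the factors switch on held the deepest falls of the 4 lists. Of 36 genes, 33 were tested, 8 fell, 1 rose and 24 were not called, with a median change of -0.30, against 18.4% lower and 4.79% higher over all probes. With the slide row as a block 7 fell and 0 rose by limma (8 lower and 2 higher at an unadjusted p below 0.05), and by the methods' t-test 7 fell and 1 rose. Actc1, the cardiac actin of immature skeletal muscle, had 13.22, 13.53, 13.64 and 13.33 in controls and 10.90, 11.35, 10.64 and 10.84 in silenced cultures (change -2.50, SE 0.22, limma adjusted p 0.000326). Mymk (listed as Tmem8c), the membrane protein of myoblast fusion, had 8.21 to 8.84 in controls and 6.10 to 6.97 in silenced cultures, where 2 arrays were well above background (change -2.04, SE 0.25, limma adjusted p 0.000953). Both were separated between groups. Atp2a1, the calcium pump of fast fibres, had 7.08 to 8.94 in controls and 5.35 to 6.80 in silenced cultures (change -2.37, SE 0.44, limma adjusted p 0.00536), and 1 silenced array was well above background. Mybph, a myosin binding protein, was well above background on 4 control and 0 silenced arrays and was at least 5.41-fold lower (limma adjusted p 0.00133), while its second probe was at -1.16 (limma adjusted p 0.0679). The second probe has the higher mean once masked values are left out, and 7 targets fell when it was used. The other 4 that fell, outside the naming rule, were Acta1 (-1.88), Chrnb1 (-1.75), Des (-1.34) and Cdh15 (-0.86).
Tnni2, the fast skeletal troponin I gene, was the 1 that rose (change 1.02, SE 0.24, limma adjusted p 0.0146) and is named after its value was seen. It lost its call without control replicate 2, and 4 of 34 genes rose without silenced replicate 4, where 12% of all probes did. Its probe, like those of Lbx1 and Hes1, holds a polyadenylation signal, and none of the brightest probes called lower in these 4 lists does. After cyclic loess, 9 of the 33 tested genes were lower and 6 higher, against 18.4% and 18.9% of all probes.

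**Figure D4:**
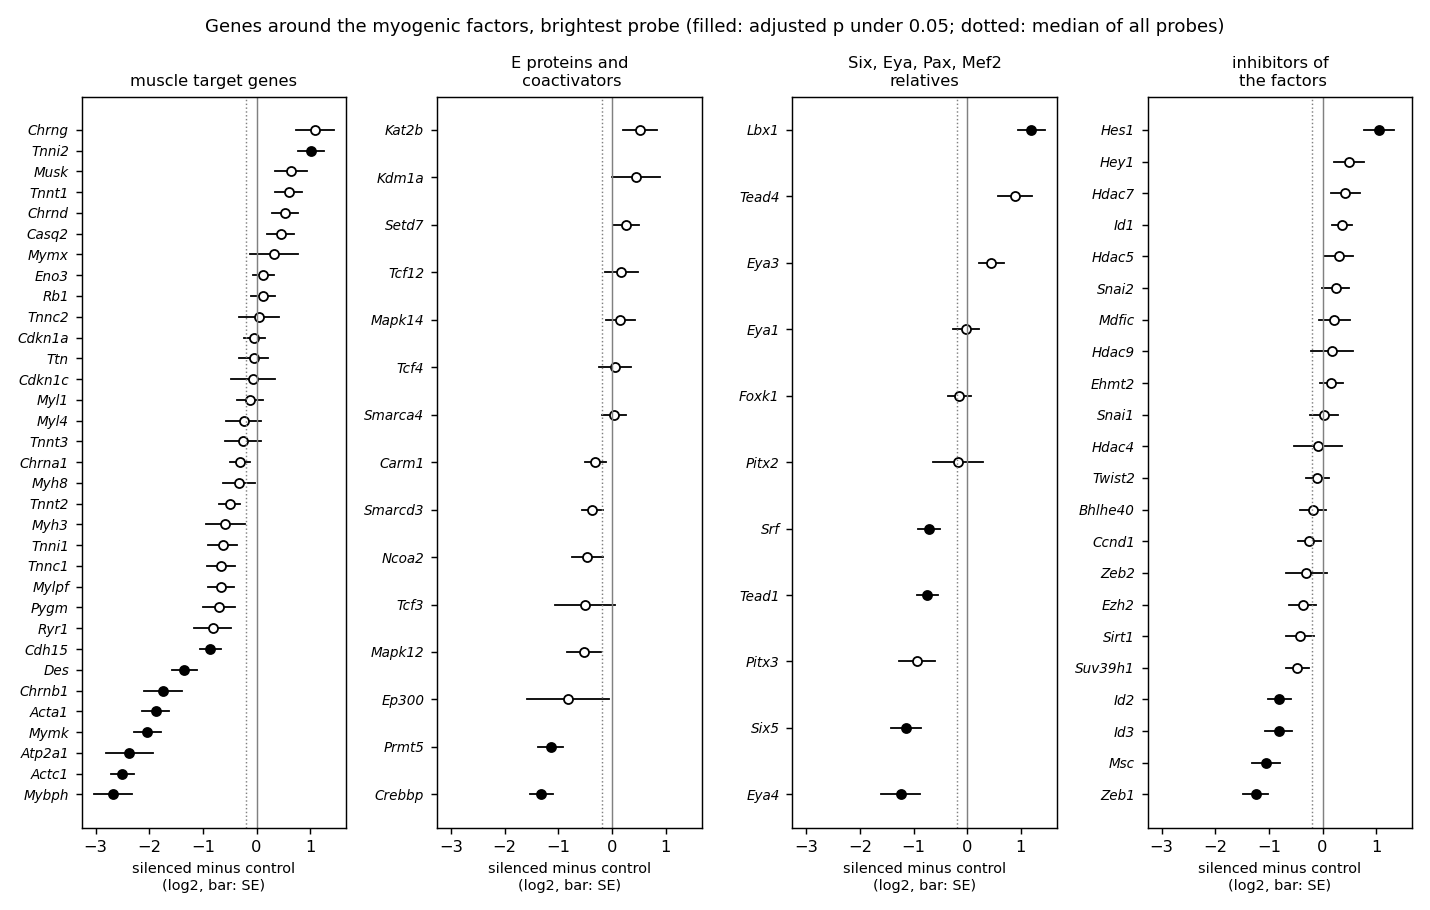
The plot gives the change (silenced minus control, log2, horizontal axis) with its SE of the tested genes of 4 lists around the myogenic factors, each by its brightest probe and sorted by change (vertical axis), with 1 gene not drawn. Filled points passed the test, and the dotted line is the median of all probes, -0.19. Of the muscle target genes 8 lie filled on the left, from Mybph to Cdh15, and Tnni2 is the filled point on the right.

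The probes most like Myod1 and Myog in their course over the arrays were also looked up, among 25108 probes measured on all 8 arrays. Closest to Myod1 were Mafk, S100a11 and Ap2a1, with Pearson correlations of 0.9969, 0.9964 and 0.9961, and changes of -1.40, -0.94 and -2.46. Closest to Myog were Gpd2, Zfp110 and Clint1, at 0.9960, 0.9947 and 0.9945. These likenesses rest on 8 arrays in 2 groups, and the Myog series includes the low value of control replicate 3, 4.96.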

How the data were processed

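RNA of 8 C2C12 cultures, 4 per group as the titles give them, was measured on 1-colour Agilent arrays of 1 slide, read in 1 scan. The deposited scanner files hold spot intensity, written by Feature Extraction 12.0.0.7 per the file headers (10.7.3.1 per the labels), which subtracted background. The authors also deposited a table of normalized intensity. Following the study's methods, spots not positive and significant were masked, log2 values of the deposited processed intensity were quantile normalized, and spots of a probe averaged. Control and outlier spots were left out here. Flags of 0 or 1 for signal above background (a score per spot) came from the deposited files. Probes with 3 of 4 values per group were fitted with limma 3.58.1 (R 4.3.3) on all 8 arrays, with group as the only term, at a Benjamini-Hochberg adjusted p of 0.05. A t-test with unequal variance, which the study names for these arrays, was run as an alternative with the same adjustment and is called the methods' t-test.

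Probe pairs were compared by exact two-sided permutation tests. The members and lists were chosen with earlier results of these data known. Named genes were all members, up to 4 called genes per list by size of change, and the 3 probes most like Myod1 and Myog; E protein genes and cell type markers were named for their role. The brightest probe is that with the highest mean over all 8 arrays before masking. Bounds compared the bright group with the higher of the dim probe's signal and the lowest signal well above background on each array. The scripts were checked on simulated data. A gene of the lists and a probe sequence are not reported here. Probe coordinates are those of the files (mm9), and promoters come from RefSeq (GRCm38.p6). The number of arrays limits the precision. Same-numbered arrays deviated together with correlations of -0.04, 0.19, 0.22 and 0.06, so numbers were not taken as pairs. Alternatives tried were cyclic loess, scaling to the 75th percentile, normexp with offset 50, the authors' table, other filters on dim spots, blocks for replicate number and slide row, a robust prior, the t-test, another choice of probe and leaving out arrays. Figures were drawn with matplotlib 3.10.9.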

Additional observations from a re-analysis of the deposited data

Results flagged for a closer look

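Of 26 groups of 4 arrays examined, 6 held 1 array far from the other 3, where chance gives about 1 in 20 groups. Control replicate 3 stood apart for Myod1 (12.81, others 13.57 to 13.66), Myog (4.96, others 8.17 to 8.41) and the Mef2d probe at 87975777 (12.91, others 11.94 to 12.04). Silenced replicate 4, the dimmest array, stood apart for Myog (6.83, others 7.81 to 7.89), Pax7 (6.72, others 7.89 to 8.0) and the Six4 probe at 74201054 (10.43, others 10.87 to 10.94).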

How the results depend on the processing

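The count of 4 member probes called lower stayed within 1.5 times under every alternative, from 4 to 5. That of probes called higher, 0 at first, was 5 after cyclic loess (18.9% of all probes). It was 3 in the authors' table (9.86%) and without masking (8.82%). It was 1 after the 75th percentile shift (7.56%), after normexp (9.18%), with complete probes only (5.2%) and with a block for the slide row (1.86%). When 1 array was left out it was 0 to 1. Without control replicate 3 and silenced replicate 4 together, chosen after seeing the data, it was 2 (17.7%). With the replicate block the member counts were 4 lower and 0 higher, and 3994 and 1023 over all probes, against 5269 and 1373. Myog reversed when only spots well above background were kept (-0.83), with a block for the slide row (-0.11) and without those 2 arrays (-0.45), and ran from -0.70 to 0.45 when 1 array was left out. Pax7 reversed after the 75th percentile shift (-0.066) and with spots well above background (-0.081), and ran from -0.097 to 0.38 when 1 array, or both of those 2, were left out. As the mean of its probes Mef2a changed by -0.97 (limma adjusted p 0.0276) and passed the test that its brightest probe, at -0.51, did not. As the mean of their probes Mef2d (-0.80, limma adjusted p 0.0211) and Six4 (0.32) reversed against their brightest probes, as did Six4 by its probe nearest the 3′ end (0.28). The Mef2d probe difference ran from -1.39 to -1.10 when 1 array was left out. Calls higher after cyclic loess and without masking were 3 and 3 for the relatives of Six4, Pax7 and the Mef2 genes. They were 1 and 1 for E proteins and coactivators, 4 and 4 for inhibitors, and 6 and 6 for muscle targets. Over all probes 18.9% and 8.82% were called higher in these settings. After the 75th percentile shift 2 relatives were higher, and 13 targets were lower and 2 higher. Over all probes 24% were lower and 7.56% higher after that shift. Choosing the brightest probe after masking, added after seeing the data, gave 7 targets lower and moved no other count of the 4 related lists. For the related lists, further alternatives added after seeing the data gave, with a block for the slide row, 0 lower and 0 higher relatives, 1 and 0 inhibitors and 0 higher targets, and with the replicate block 2 lower relatives, 2 lower and 0 higher inhibitors and 2 higher targets. Without control replicate 3 and silenced replicate 4 together, 3 relatives, 1 E protein or coactivator gene, 5 inhibitors and 6 targets were higher. In that setting 4 E protein or coactivator genes were lower. Over all probes 17.7% were called higher and 23.2% lower there, and these counts are to be read against those shares. Leaving out 1 array, or those 2, gave 1 to 4 lower and 1 to 3 higher relatives, 2 to 4 and 0 to 1 E protein and coactivator genes, 1 to 5 and 0 to 5 inhibitors, and 7 to 9 and 0 to 6 targets. The cause was not tested.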
